A study of Mus musculus with 4 samples.

Results

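Intestinal gluconeogenesis was followed through 9 genes on 4 arrays of mouse small intestine. They were Pck1, Pck2, G6pc, Fbp1, Fbp2, Slc37a4, Pcx, Gpd1 and Ppargc1a, out of 19938 genes with a probe set of their own, that is, a probe set annotated with that gene's symbol alone. The genes were chosen by name, as enzymes, a transporter and a coactivator of the pathway, with earlier results of these arrays already known. Where a gene had more than 1 such probe set, the one with the highest mean over the 4 arrays was used, and only Ppargc1a, with 2, had a choice. The difference between the genotypes is therefore given for these 9 genes as a description and without a p-value.

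The mice were of the C57BL/6 strain, and total RNA of their small intestine was labelled with biotin for single-colour Affymetrix arrays. The wild-type group had 2 arrays, with titles ending in XX and XY. The CFLARs Tg group, mice with a transgene for the short form of the caspase-8 regulator cFLIP, also had 2 arrays, with titles ending in XCFX and XCFY. The promoter that drives the transgene, the age of the mice, the part of the small intestine and whether RNA was pooled are not stated in the labels. In the same way nothing says how many animals stand behind an array. Xist read 12.92 in the XX and 12.90 in the XCFX array, and 6.78 in the XY and 6.62 in the XCFY array. Y-linked genes read the other way round. The 2 arrays of a group therefore came from different animals, and their spread is not technical alone. By these genes the XX and XCFX arrays read as female and the XY and XCFY arrays as male, so each group holds both sexes. The spread within a group holds animal, technical and sex (title-type) differences together, which cannot be told apart. The series title names preterm mice, ileitis and necroptosis of intestinal epithelial cells, and the stated purpose was to compare intestinal gene expression between the genotypes. Values are log2 expression values as deposited. Means are given with the SD of 2 arrays, and differences are CFLARs Tg minus wild-type with limma's moderated standard error (SE).

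The array medians lay between 8.31 and 8.33, and at most 33 of 28856 probe sets had identical values on any pair of arrays. Probe sets of Y-linked genes in the XX and XCFX arrays and of Xist in the XY and XCFY arrays, where little or no transcript is present, read 5.13 to 6.78. These readings served as a scale of background. Cflar read 9.34 and 9.28 in wild-type and 9.49 and 9.30 in CFLARs Tg, and because the probe set may lie outside the transgene this does not check the genotype labels. Of the defining enterocyte genes, Vil1, the brush border villin gene, read between 11.99 and 12.21, whereas Sis, the sucrase-isomaltase gene, read between 7.08 and 7.67, nearer to background.

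Gluconeogenesis makes glucose from lactate, amino acids and glycerol. Pyruvate carboxylase and phosphoenolpyruvate carboxykinase bypass pyruvate kinase, fructose-1,6-bisphosphatase bypasses phosphofructokinase, and glucose-6-phosphatase, fed by a transporter in the membrane of the endoplasmic reticulum, bypasses hexokinase and releases free glucose. Liver and kidney are the main sites, and the small intestine also expresses the pathway, strongly in the suckling period, with glutamine and glycerol among its substrates.

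All 9 genes read lower in both CFLARs Tg arrays than in both wild-type arrays, by amounts that ranged from 10.0-fold for Pck1 to 1.06-fold for Pck2. Such a separation of the arrays in the lower direction was found for 37.6% of the 13956 genes fitted. The median difference of the 9 genes was -1.16 on the log2 scale, and that of all fitted genes was -0.01. In the fit across all genes, 5 of the 9 passed the threshold (limma, adjusted p under 0.05) as lower, Pck1, G6pc, Slc37a4, Gpd1 and Ppargc1a, and 10.9% of all fitted genes did. Because the genes were chosen with this comparison known, nothing is read from that count. It was 0 without wild-type replicate 1 and without wild-type replicate 2 (limma; 6 of the 9 had an unadjusted p under 0.05 in each case), and it was 8 without CFLARs Tg replicate 1.

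**Figure D1:**
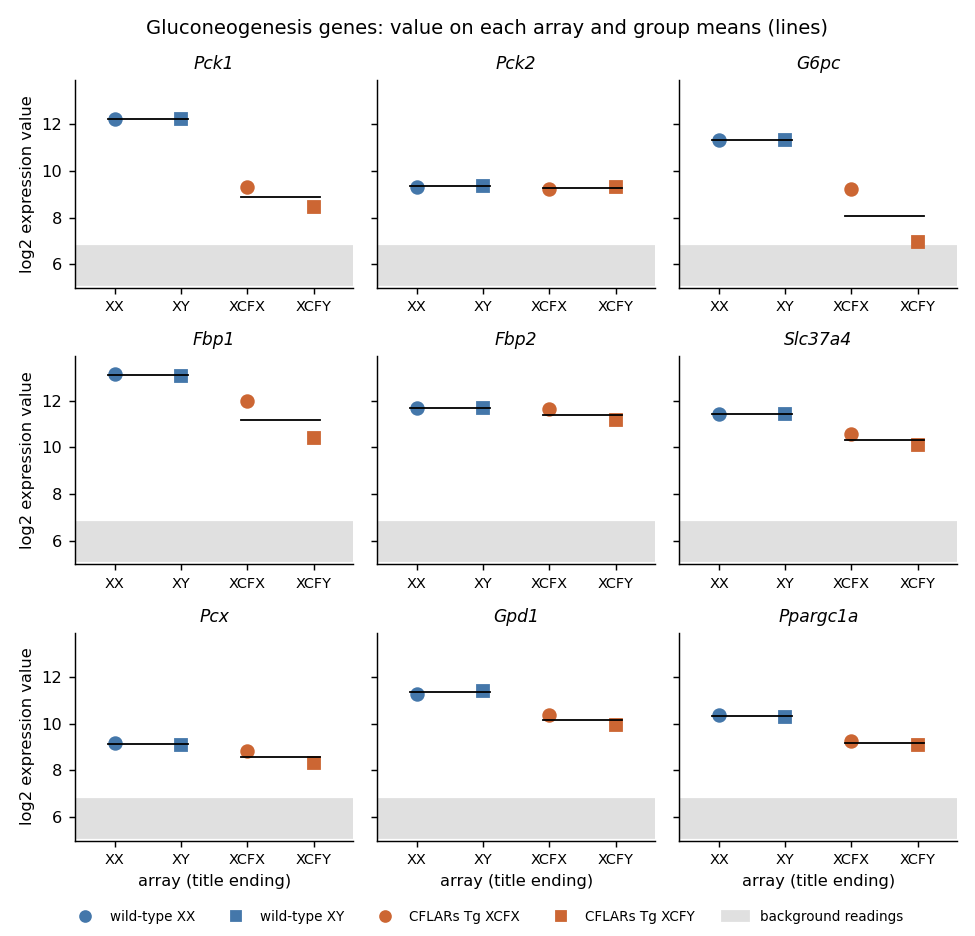
Log2 expression value (vertical axis) of each of the 9 genes on each of the 4 arrays (horizontal axis, by title ending), with circles for XX and XCFX, squares for XY and XCFY, blue for wild-type, orange for CFLARs Tg, lines at the group means and a grey band for the background readings of 5.13 to 6.78. The wild-type points coincide in nearly every panel, both CFLARs Tg points lie below them, and G6pc in the XCFY array, at 6.95, comes closest to the band.

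The first committed step from the citric acid cycle is catalysed by phosphoenolpyruvate carboxykinase, which has a cytosolic form, encoded by Pck1, and a mitochondrial form, encoded by Pck2. Pck1 read 12.21 in the XX and 12.22 in the XY wild-type array, and 9.33 in the XCFX and 8.45 in the XCFY array. The wild-type arrays were nearly identical, and both CFLARs Tg arrays were far below them. The group means were 12.22 ± 0.01 and 8.89 ± 0.62 (SD, n = 2), a difference of -3.33 (SE 0.29). Only 1 of the 13956 fitted genes had a larger downward difference. Pck2 read 9.32 and 9.36 in wild-type and 9.22 and 9.29 in CFLARs Tg, a difference of -0.09 (SE 0.06), so that the forms with the same reaction in different compartments stood at opposite ends of the 9 genes. The lower CFLARs Tg array of Pck2 was XCFX, in contrast to the other 8 genes.

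The 250 bases before the start of these genes (RefSeq, GRCm38.p6) are shown for description. Whether the sequences bear on the unlike differences of the forms was not tested. The window of Pck1 lies at chr2:173152823-173153072, plus strand, and that of Pck2 at chr14:55540016-55540265, plus strand. Both are given 5′ to 3′ along the gene, with capitals for matches, on either strand, to 5 short motifs: the cyclic AMP response element core TGACG, the forkhead motif TGTTTAC, the nuclear receptor half-site AGGTCA, the HNF1 half-site GTTAAT and the TATA box TATAAA.
Pck1: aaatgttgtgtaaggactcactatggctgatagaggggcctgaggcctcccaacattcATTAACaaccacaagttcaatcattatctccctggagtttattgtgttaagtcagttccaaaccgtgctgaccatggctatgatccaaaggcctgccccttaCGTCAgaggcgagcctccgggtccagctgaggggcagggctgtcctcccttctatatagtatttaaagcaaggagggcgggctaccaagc
Pck2: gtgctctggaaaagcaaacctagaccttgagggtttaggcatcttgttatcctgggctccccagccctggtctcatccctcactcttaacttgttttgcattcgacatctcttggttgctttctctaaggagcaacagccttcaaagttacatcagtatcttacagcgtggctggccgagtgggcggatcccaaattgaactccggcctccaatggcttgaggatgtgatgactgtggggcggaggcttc
In Pck1 the cyclic AMP response element core stood on the reverse strand from 90 to 86 bases before the start, and the HNF1 half-site on the reverse strand from 192 to 187 bases before it. The Pck2 window held none of the 5 motifs. No matches overlapped.

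The terminal step releases free glucose and needs the catalytic subunit G6pc and the glucose-6-phosphate transporter Slc37a4. G6pc read 11.34 in the XX and 11.31 in the XY wild-type array, and 9.21 in the XCFX and 6.95 in the XCFY array. The CFLARs Tg arrays differed from each other by 2.26 log2 units, and the XCFY reading was close to the top of the background range, where a difference understates the change in RNA. The group means were 11.32 ± 0.02 and 8.08 ± 1.60, a difference of -3.24 (SE 0.74), or 9.45-fold. Without CFLARs Tg replicate 1 (XCFX) it was -4.37, and without CFLARs Tg replicate 2 (XCFY) -2.11. Slc37a4 read 11.44 and 11.41 in wild-type and 10.58 and 10.08 in CFLARs Tg. It was lower by less than G6pc, with a difference of -1.09 (SE 0.17), or 2.14-fold, and again the XCFY array was the lower of its group. The G6pc window, at chr11:101367466-101367715, plus strand, held 3 of the motifs: the HNF1 half-site from 221 to 216 bases before the start, the nuclear receptor half-site on the reverse strand from 54 to 49, and the TATA box from 29 to 24.
G6pc: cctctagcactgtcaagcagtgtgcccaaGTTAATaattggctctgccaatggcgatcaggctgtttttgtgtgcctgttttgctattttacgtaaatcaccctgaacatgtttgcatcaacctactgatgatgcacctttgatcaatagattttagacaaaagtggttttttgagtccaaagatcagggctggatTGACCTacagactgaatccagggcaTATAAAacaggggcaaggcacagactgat

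Fructose-1,6-bisphosphatase is encoded by Fbp1, the form of liver, kidney and intestine, and Fbp2, best known from muscle. The genes are neighbours on chromosome 13, with 0 other protein-coding genes between them in the RefSeq table. Fbp1 read 13.13 in the XX and 13.06 in the XY wild-type array, and 11.97 in the XCFX and 10.40 in the XCFY array. The CFLARs Tg arrays lay below the wild-type arrays but were 1.57 apart, and the group means were 13.09 ± 0.06 and 11.18 ± 1.11, a difference of -1.91 (SE 0.52). That difference was -2.69 without CFLARs Tg replicate 1 and -1.13 without CFLARs Tg replicate 2. Fbp2 read 11.69 and 11.70 in wild-type and 11.62 and 11.18 in CFLARs Tg. Its difference of -0.30 (SE 0.15) came mostly from the XCFY array and was -0.08 without it and -0.51 without the XCFX array. The promoter windows of these neighbours lie at chr13:62888283-62888532, minus strand, for Fbp1 and at chr13:62858401-62858650, minus strand, for Fbp2. Whether they bear on the unlike differences was not tested.
Fbp1: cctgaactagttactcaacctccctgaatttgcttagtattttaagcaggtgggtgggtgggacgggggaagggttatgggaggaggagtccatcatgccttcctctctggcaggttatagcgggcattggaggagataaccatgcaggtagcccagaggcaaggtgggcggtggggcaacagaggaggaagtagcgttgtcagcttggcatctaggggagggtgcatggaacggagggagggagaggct
Fbp2: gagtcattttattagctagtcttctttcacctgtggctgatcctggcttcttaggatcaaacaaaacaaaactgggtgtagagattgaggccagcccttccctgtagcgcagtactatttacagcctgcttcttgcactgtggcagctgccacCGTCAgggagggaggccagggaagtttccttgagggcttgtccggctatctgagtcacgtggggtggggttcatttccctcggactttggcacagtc
The Fbp1 window held none of the 5 motifs, and that of Fbp2, the gene with the smaller difference, held the cyclic AMP response element core from 97 to 93 bases before the start, on the reverse strand.

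Pyruvate enters through pyruvate carboxylase (Pcx), and glycerol through the cytosolic glycerol-3-phosphate dehydrogenase Gpd1, which links glycerol phosphate to the triose phosphates. Pcx read 9.19 and 9.10 in wild-type and 8.83 and 8.34 in CFLARs Tg, a difference of -0.56 (SE 0.17) that was -0.81 without CFLARs Tg replicate 1 and -0.31 without CFLARs Tg replicate 2. Gpd1 read 11.27 and 11.42 in wild-type and 10.37 and 9.96 in CFLARs Tg. Its difference of -1.18 (SE 0.15), or 2.26-fold, was larger than that of Pcx, and its wild-type arrays were the farthest apart among the 9 genes, at 0.15.

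Ppargc1a encodes PGC-1 alpha, a coactivator of nuclear receptors and forkhead factors that raises transcription of gluconeogenic and mitochondrial genes in liver. It read 10.36 and 10.30 in wild-type and 9.28 and 9.07 in CFLARs Tg. The difference of -1.16 (SE 0.09), or 2.23-fold, was nearly the same in both pairs of arrays, -1.09 for XCFX against XX and -1.23 for XCFY against XY. The other probe set of Ppargc1a read 10.22, 10.14, 9.09 and 8.99 in the XX, XY, XCFX and XCFY arrays, a difference of -1.14.

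Promoter windows were found for 8 of the 9 genes, 11 windows in all because Slc37a4 and Pcx have several starts. The cyclic AMP response element core was present in 5 of the 11 windows, those of Pck1, Fbp2, Ppargc1a and 2 of Slc37a4 that overlap and share a match, and in 17.8% of all 32851 RefSeq windows of the same length. The HNF1 half-site was present in 2 windows (6.43% of all windows), the nuclear receptor half-site in 2 (14.0%), the TATA box in 2 (12.4%) and the forkhead motif in 0 (3.17%). Windows with the cyclic AMP response element core belonged both to Pck1, with a log2 difference of -3.33, and to Fbp2, with -0.30, while the window of Fbp1, with -1.91, had no match.

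The arrays of a group differed little in wild-type and more in CFLARs Tg. Between the wild-type arrays the 9 genes differed by 0.01 to 0.15, with a median of 0.04, and all fitted genes had a median of 0.05. Between the CFLARs Tg arrays the median was 0.50 for the 9 genes and 0.11 for all fitted genes. The XCFY array was the lower in 8 of the 9 genes, and in 48.9% of all fitted genes. In the pair of XX-type titles, XCFX against XX, Pck1 stood at 13.6% of the wild-type signal, G6pc at 22.9%, Fbp1 at 44.5%, Ppargc1a at 47.1%, Gpd1 at 53.6%, Slc37a4 at 55.1%, Pcx at 78.2%, Pck2 at 93.2% and Fbp2 at 95.0%. In the pair of XY-type titles G6pc was the lowest, at 4.88%, followed by Pck1 at 7.33%, Fbp1 at 15.9%, Gpd1 at 36.4%, Slc37a4 at 39.8%, Ppargc1a at 42.7%, Pcx at 58.9%, Fbp2 at 69.8% and Pck2 at 95.3%. Each pair has no replicate, so these percentages carry no error. Pck1, G6pc and Fbp1 were the 3 lowest in both pairs, and Pcx, Fbp2 and Pck2 the 3 highest.

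**Figure D2:**
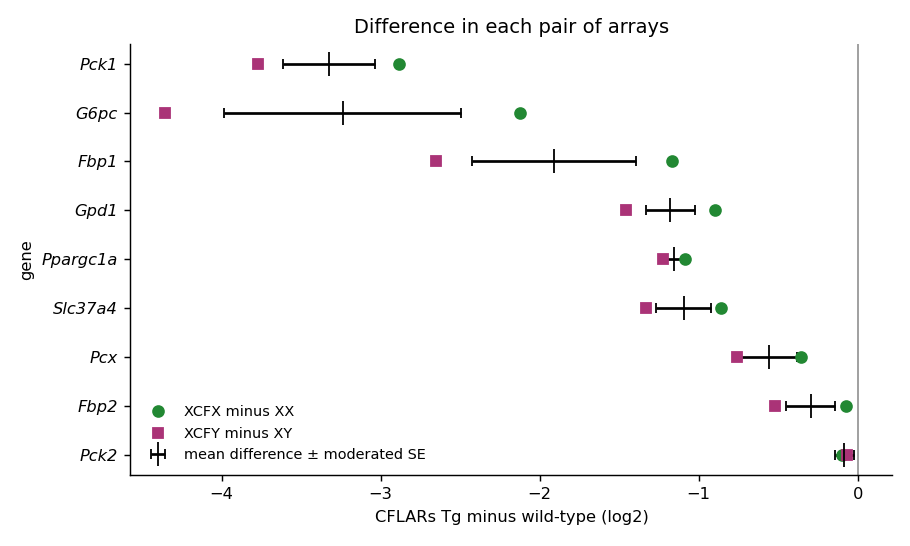
Log2 difference, CFLARs Tg less wild-type (horizontal axis), for the 9 genes (vertical axis), as circles for XCFX minus XX, squares for XCFY minus XY, and black ticks for the mean difference with bars of 1 moderated SE. The squares lie left of the circles for every gene except Pck2, most of all for G6pc, at -2.12 and -4.36, and least for Ppargc1a among the genes with a difference beyond -1.

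Within the 9 genes, the profiles of Slc37a4, Gpd1 and Ppargc1a were the closest to each other. They were not alike in the gap between the CFLARs Tg arrays, where XCFY minus XCFX was -0.50, -0.41 and -0.20 in this order. Likeness was measured as the Euclidean distance over the 4 arrays between log2 values taken relative to the wild-type mean. It was 0.18 for Slc37a4 and Gpd1, 0.21 for Gpd1 and Ppargc1a and 0.23 for Slc37a4 and Ppargc1a, against 0.99 for Pck1 and G6pc and 4.63 for Pck1 and Pck2. Differences among Slc37a4, Gpd1 and Ppargc1a, from -1.18 to -1.09, were within their SEs of 0.09 to 0.17, as were those of Pck1 and G6pc.

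By the same measure, the fitted genes most like Pck1 and G6pc were sought, leaving out symbols that start with Gm and a digit or end in Rik. Those most like Pck1 were Abcb11, the bile salt export pump (0.43), Sectm1b (0.63), Lrat, which esterifies retinol (0.75), Slc2a2, the glucose transporter GLUT2 (0.81), and G6pc (0.99). Those most like G6pc were Sectm1b (0.51), Abcb11 (0.62), Mme, the peptidase neprilysin (0.64), Slc2a2 (0.99) and Pck1 (0.99). Slc2a2, which carries glucose across the basolateral membrane, was therefore among the nearest genes to both, at 11.08 and 11.07 in wild-type and 8.91 and 7.69 in CFLARs Tg. Mme read 11.84 and 11.80 in wild-type and 9.41 and 6.89 in CFLARs Tg. In the XCFY array Abcb11 read 6.69, within the background readings, and Mme lay just above them. The distances of these 2 genes may therefore be limited by the floor. All genes named here as most like Pck1 or G6pc were selected for this pattern, so it has no test here.

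**Figure D3:**
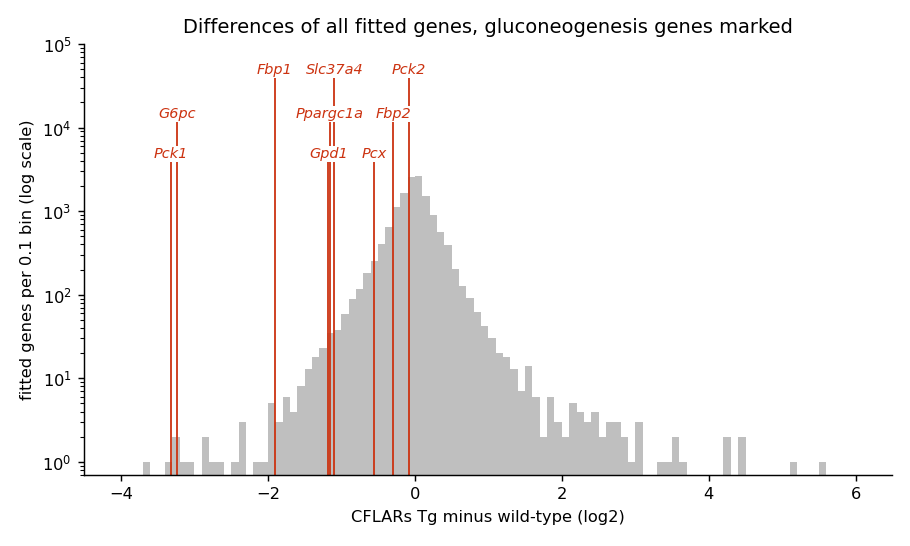
Number of fitted genes per 0.1 bin of the log2 difference (vertical axis, log scale) against the difference, CFLARs Tg minus wild-type (horizontal axis), for all 13956 fitted genes in grey, with the 9 gluconeogenesis genes as red lines. Pck1 and G6pc lie at the far left end of the distribution, Fbp1 at rank 21 from the lowest, and Pck2 and Fbp2 lie within its bulk.

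Around these 9 genes, 148 related genes in 6 lists were examined, and 132 of them had their own probe set, while 123 passed the filter on low values. Of these, 20 rose and 31 fell (limma, adjusted p under 0.05), which is 41.5%, against 19.3% of all fitted genes (8.44% rose and 10.9% fell), and their median difference was -0.13. The lists were drawn up with earlier results of these arrays known. Without wild-type replicate 1 or without wild-type replicate 2, 0 of the 123 passed (limma; 47 and 50 had an unadjusted p under 0.05), and without CFLARs Tg replicate 1, 88 passed.

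Among genes of glucose transport and the other glucose-6-phosphatases, 4 of 12 fitted genes fell and 2 rose, with a median of -0.39, which was -0.59 without CFLARs Tg replicate 1 and -0.19 without CFLARs Tg replicate 2. Slc2a2 fell from 11.07 ± 0.01 to 8.30 ± 0.86 (log2, SD, n = 2), or 6.85-fold (adjusted p = 0.0233, limma). Its log2 difference of -2.78 was -3.38 without CFLARs Tg replicate 1 and -2.17 without CFLARs Tg replicate 2. Slc37a2, a relative of Slc37a4 that exchanges phosphate for glucose-6-phosphate, fell by 1.50, and the hexose transporter genes Slc2a7 and Slc2a5 fell by 0.79 and 0.74. Slc2a1, which encodes the widespread glucose transporter GLUT1, rose by 0.66 (adjusted p = 0.0293, limma), and Slc37a1, chosen after its value was seen, by 0.31. The glucose cotransporter gene Slc5a9 differed by -0.74 (adjusted p = 0.0923, limma). It passed with the title type as a block (adjusted p = 0.0293, limma). The difference of Slc5a9 was -1.10 without CFLARs Tg replicate 1 and -0.39 without CFLARs Tg replicate 2. G6pc3, the widespread catalytic subunit, also chosen after its value was seen, read 10.37 and 10.43 in wild-type and 10.41 and 10.59 in CFLARs Tg, a difference of 0.09 (SE 0.08), beside -3.24 for G6pc. Without either wild-type array none of these calls held, as stated for all 123 genes.

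The irreversible steps that run against gluconeogenesis went both ways: 5 of 18 fitted genes rose and 5 fell, with a median of -0.01. Hk2, an inducible hexokinase gene, opposes G6pc; it read 8.66 and 8.73 in wild-type and 10.15 and 10.51 in CFLARs Tg, and rose by 1.63 (SE 0.13, limma adjusted p = 0.0133). Pfkfb3, whose product makes the activator of phosphofructokinase and inhibitor of fructose-1,6-bisphosphatase, rose by 0.69. The platelet phosphofructokinase gene Pfkp rose by 0.40 and the muscle form Pfkm fell by 0.46, both chosen after their values were seen. At the step that Pck1 bypasses, Pklr, the liver and intestinal pyruvate kinase gene, fell by 0.55, and Pkm, the widespread form, chosen after its value was seen, rose by 0.53. Pdk2 and Pdk4, kinases that switch off pyruvate dehydrogenase and so spare pyruvate, fell by 1.52 and 1.47 (adjusted p = 0.0154 and 0.0179, limma). Hk3 and Pfkfb2 were the other members that rose and fell, by 0.38 and 0.40 in this order, also chosen after their values were seen. Pfkfb4 differed by -0.62 (adjusted p = 0.0709, limma), and passed with the title type as a block (adjusted p = 0.0237, limma). Its difference was -0.87 without CFLARs Tg replicate 1 and -0.37 without CFLARs Tg replicate 2.

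Of the reversible steps that both pathways use, 8 genes were fitted, 1 rose and 1 fell, with a median of 0.10. The phosphoglycerate kinase gene Pgk1 rose by 0.47 and the aldolase gene Aldoc fell by 0.36, while Aldoa, Pgam1, Eno3 and Tpi1 differed by 0.28, 0.12, 0.11 and 0.09 and did not pass.

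Substrate entry from glutamine, amino acids and lactate was represented by 23 fitted genes, of which 5 fell and 2 rose, with a median of -0.20. Slc6a19, the apical transporter of neutral amino acids, fell by 0.97 (adjusted p = 0.0482, limma), a call that was lost after quantile normalization, after median centring and without the filter (adjusted p = 0.0503, 0.0517 and 0.0537). The urea cycle gene Otc fell by 0.82, and Gpt, alanine aminotransferase, by 0.69. Slc1a5, a glutamine transporter gene, rose by 0.56. Asl, a urea cycle gene, and Slc25a13, the liver-type aspartate-glutamate carrier gene, differed by -0.64 and -0.34 and did not pass (adjusted p = 0.0857 and 0.0634, limma). Without CFLARs Tg replicate 1 their differences were -0.93 and -0.46, and without CFLARs Tg replicate 2 they were -0.35 and -0.23. Asl passed with the title type as a block (adjusted p = 0.0417, limma). The other calls, chosen after their values were seen, were the mitochondrial pyruvate carrier gene Mpc1 and the oxoglutarate carrier gene Slc25a11, which fell by 0.28 and 0.30, and the aspartate aminotransferase gene Got1, which rose by 0.28.

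Entry from glycerol, fructose and propionate had 11 fitted genes, of which 5 fell and 2 rose, with a median of -0.25. Aqp7, the glycerol channel, read 10.22 and 10.12 in wild-type and 9.04 and 8.11 in CFLARs Tg, and fell 3.02-fold (log2 SE 0.31, limma adjusted p = 0.0352). Gpd1l, a relative of Gpd1, fell by 0.71, and Khk, fructokinase, by 0.71. The mitochondrial glycerol-3-phosphate dehydrogenase gene Gpd2 moved the other way from Gpd1 and rose by 0.74 (adjusted p = 0.0185, limma), at 10.03 and 10.21 in wild-type and 10.90 and 10.81 in CFLARs Tg. The glycerol-3-phosphate phosphatase gene Pgp rose by 0.46. Of propionate metabolism, Pccb fell by 0.56 and Mmut, chosen after its value was seen, by 0.25.

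**Figure D4:**
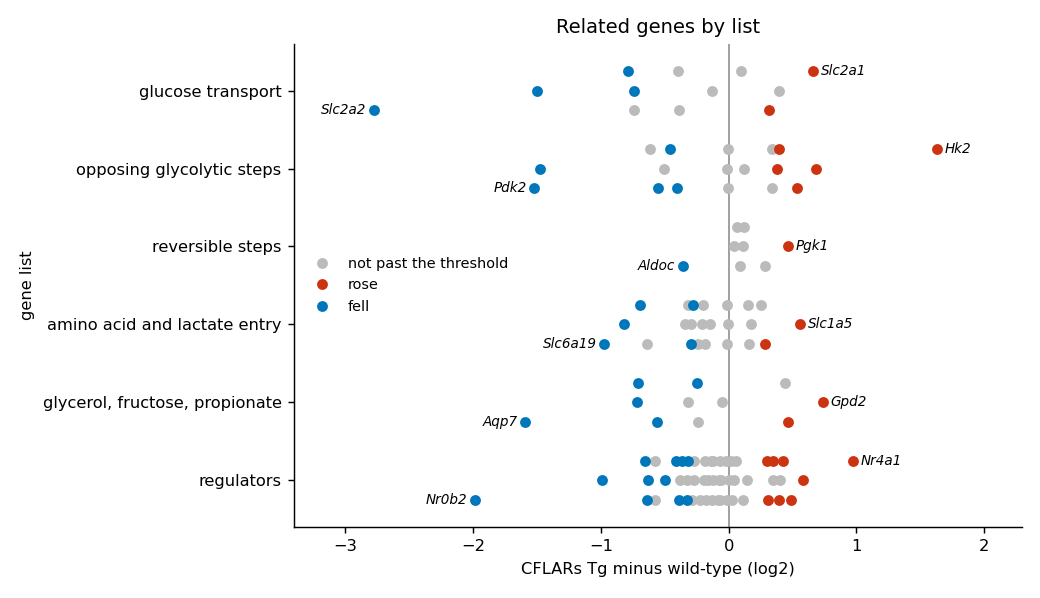
Log2 difference, CFLARs Tg less wild-type (horizontal axis), for each of the 123 fitted related genes, by list (vertical axis; points are staggered for legibility), in blue where the gene fell, red where it rose (limma, adjusted p under 0.05) and grey otherwise, with the gene at each end named. Slc2a2, at -2.78, is the lowest point and Hk2, at 1.63, the highest.

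Among transcriptional and hormonal regulators, 11 of 51 fitted genes fell and 8 rose, with a median of -0.12. Nr0b2, which encodes the repressor SHP, fell from 9.30 ± 0.15 to 7.31 ± 0.74 (adjusted p = 0.0305, limma), with the XCFY array at 6.79, next to background. The fatty acid sensor gene Ppara fell by 0.99, the bile acid receptor gene Nr1h4 by 0.64, Hnf4g by 0.63 and the insulin receptor substrate gene Irs2 by 0.65. The immediate early receptor gene Nr4a1 rose by 0.97 (SE 0.06, limma adjusted p = 0.00578). The other calls were chosen after their values were seen. The insulin receptor gene Insr fell by 0.49, the clock gene Cry2 by 0.41, the retinoid X receptor gene Rxra by 0.39, Nr5a2, which encodes LRH-1, by 0.37, Prox1 by 0.33 and Cited2 by 0.32. The forkhead gene Foxa1 rose by 0.58, Pparg by 0.49, the AMP-activated kinase gene Prkaa2 by 0.43, the kinase gene Sik1 by 0.40, Stat3 by 0.35, Ppard by 0.31 and Cebpb by 0.30. Among the 32 that did not pass, with examples also chosen after their values were seen, Hnf4a differed by -0.18 (SE 0.09), Foxo1 by -0.22 (SE 0.07), Creb1 by 0.02 (SE 0.06), the CREB coactivator gene Crtc2 by -0.06 (SE 0.05) and the glucocorticoid receptor gene Nr3c1 by -0.27 (SE 0.07). Ppargc1b, the close relative of Ppargc1a, differed by 0.14 (SE 0.10). Leaving out a wild-type array ended every call in this list, as it did in the others.

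The tissue is bulk, so fewer enterocytes and less of an RNA per enterocyte cannot be told apart for any of these genes. Of 10 fitted enterocyte markers, 0 fell and 1 rose (limma; Krt20, by 1.35; 5 were lower with an unadjusted p under 0.05), and 8 lay lower, with a median of -0.24, beside -1.16 for the 9 gluconeogenesis genes. Their summed linear signal was 85243 and 85402 in wild-type and 76180 and 54805 in CFLARs Tg, and 0 of the 11 markers on the array lay within background on all arrays. The epithelial genes Vil1, Epcam and Cdh1 differed by -0.08, -0.08 and 0.16, while the absorptive genes Fabp1, Fabp2, Lct, Alpi and Apoa4 differed by -0.81, -0.72, -1.49, -0.52 and -0.27, and 0 of these 8 passed (limma). Lct, the lactase gene, differed by -0.70 in the pair of XX-type titles and by -2.29 in that of XY-type titles. The XCFY array was the lower of its group for the enterocyte list as well, with a median of -0.37 between the CFLARs Tg arrays. The part of enterocyte content in the differences of the 9 genes was not tested.

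Hepatocyte genes, which would carry the same enzymes, also varied between these arrays. Alb read 11.47 and 12.72 in wild-type and 11.20 and 6.57 in CFLARs Tg, and Ahsg 9.47, 10.94, 9.09 and 6.57 in the same order. Not all followed this course: Hp read 7.43, 7.96, 8.13 and 8.81, and Ttr 12.35, 12.33, 11.74 and 11.26. Of 7 fitted hepatocyte markers 1 fell (limma; Ttr, by 0.84), and the summed signal of the 9 on the array was 11041 and 17057 in wild-type and 8533.5 and 3774 in CFLARs Tg, with Cyp2e1 within background on all arrays. The median of the 7 was -0.21 in the pair of XX-type titles and -2.42 in the pair of XY-type titles. The gluconeogenesis genes had medians of -0.90 and -1.33. In the XX-type pair Pck1 differed by -2.88 and G6pc by -2.12, Alb by -0.27 and Ttr by -0.61. Between the wild-type arrays the 9 genes differed by at most 0.15, and the 7 hepatocyte markers had a median of 0.53 (XY minus XX). The markers were not alike there: Alb differed by 1.25, whereas Fga read 8.38 and 8.49 and Ttr 12.35 and 12.33. The part of hepatocyte RNA in the differences of the 9 genes was not tested.

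Markers of other tissues and of immune cells were read as well. Neutrophil genes rose in 5 of 6 fitted members (S100a9 by 2.71, S100a8 by 2.67), with a summed signal of 924.1 and 1056 in wild-type and 2649 and 6742 in CFLARs Tg. Macrophage genes differed by a median of 0.28 with 0 of 7 called (limma; 1 had an unadjusted p under 0.05). Muscle genes, from a tissue where Fbp2 is known to be expressed, differed by a median of 0.17 with 0 of 7 called (limma; 3 had an unadjusted p under 0.05). Adipocyte genes, of a tissue that expresses Pck1, Gpd1 and Aqp7, had 0 of 3 called with a median of -0.15 (limma; 0 had an unadjusted p under 0.05), and Adipoq and Lep lay within background on all arrays. Of the kidney tubule list 2 genes were fitted and 0 called (limma; 0 had an unadjusted p under 0.05), and Slc12a1 and Kap lay within background. The part of any of these cell types in the differences of the 9 genes was not tested.

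**Figure D5:**
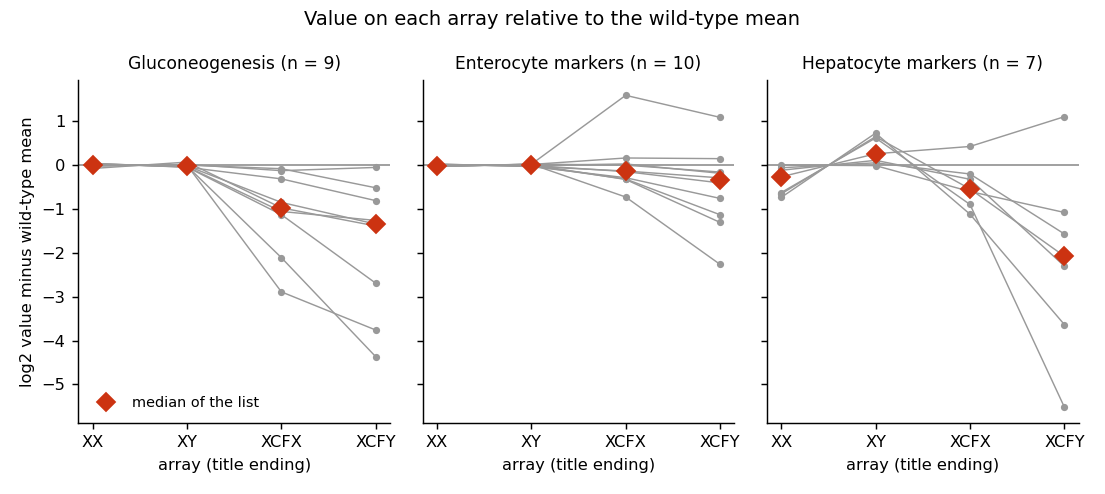
Log2 value minus the wild-type mean (vertical axis) on each array (horizontal axis, by title ending) for the 9 gluconeogenesis genes, 10 enterocyte markers and 7 hepatocyte markers; grey points joined by a line belong to 1 gene, lines carry no order between arrays, and red diamonds are medians. In the XCFX array all 9 gluconeogenesis genes lie below the wild-type mean, Pck2 and Fbp2 only slightly. The enterocyte median is lowest in the XCFY array. The hepatocyte median differs between the wild-type arrays and is also lowest in the XCFY array, with single markers that go other ways (Hp is highest there). The part of either cell type in the differences of the 9 genes was not tested.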

How the data were processed

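RNA of 4 small intestine samples was measured on single-colour arrays. The authors deposited log2 values of 28856 probe sets for each array; their summarisation and normalization are not given in the sources used here. They were used without further transformation. Gene names came from the platform annotation: 21789 probe sets carried 1 symbol and stood for 19938 genes, and the probe set with the highest mean represented each gene. The 30% of genes with the lowest mean (under 7.48) were left out, and 13956 were fitted with limma 3.58.1 in R 4.3.3 (lmFit and eBayes, no covariates, 2 residual and 2.64 prior degrees of freedom, Benjamini-Hochberg adjustment over all fitted genes, threshold 0.05). The script was tested on simulated data with a common SD for all genes and both groups. That test does not cover the unequal spread of the wild-type and CFLARs Tg arrays. Groups came from the genotype label, and replicate numbers only name arrays. The members and lists were chosen with earlier results of these data known. Named were the 9 genes, the 6 fitted genes per list with the largest absolute difference, the 5 genes nearest to Pck1 and to G6pc, and marker genes where a marker list is described. Symbols that start with Gm and a digit or end in Rik were left out of the search for the nearest genes. Other genes were chosen after their values were seen, as stated beside most of them. The number of arrays limits the precision. Promoter sequences are RefSeq's (GRCm38.p6), shown up to the start only. Alternatives were other scaling, filters, probe set rules, a title-type block, an intensity trend and leaving out each array.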

Additional observations from a re-analysis of the deposited data

Results flagged for a closer look

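Eno3, the muscle enolase gene, differed in opposite directions in the pairs of arrays: by -0.017 in XCFX against XX and by 0.24 in XCFY against XY. Each pair holds 1 array per genotype, so the difference between the pairs was not tested.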

How the results depend on the processing

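The 9 gluconeogenesis genes and the 36 related genes that the rule for named genes takes kept their direction under all 11 alternatives wherever they were called. Much of this was fixed in advance, because the filters, the block and the intensity trend leave a difference unchanged. Where both CFLARs Tg arrays lie below both wild-type arrays, as for all 9 genes, leaving out an array cannot reverse the sign. Nothing is therefore read from the kept direction. The number of calls depended on single arrays. Leaving out each array in turn gave 34 to 3112 genes called higher and 3 to 3447 called lower in all (1178 and 1517 as reported), 0 to 31 and 0 to 57 of the related genes (20 and 31 as reported), and 0 to 8 of the 9 gluconeogenesis genes as lower. The lowest counts came without a wild-type array, where the spread is estimated from the CFLARs Tg arrays alone, and the lone wild-type array is assumed to vary like them; all 28 calls among those 36 were then lost (adjusted p from 0.0675 to 0.246, limma). Under the other alternatives 1 of the 28 was lost, that of Slc6a19, and 4 (Slc2a7, Slc2a5, Gpt and Nr0b2) were not fitted with the lowest 50% of genes left out. Of all 51 calls among the related genes, 7 were lost under at least 1 alternative that keeps all arrays (adjusted p from 0.0503 to 0.0734, limma). They were Slc6a19, Mmut, Nr5a2, Ppard, Slc25a11, Got1 and Mpc1. The highest counts came without a CFLARs Tg array, where the spread is estimated from the wild-type arrays alone. Those arrays differed by a median of 0.05 over all fitted genes, against 0.11 between the CFLARs Tg arrays. Calls pass more easily there, so nothing is read from calls that were kept. The title type as a block added 9 calls among the related genes, with Slc5a9, Pfkfb4 and Asl among them. It lost 4, those of Got1, Mmut, Mpc1 and Slc25a11. Of the 9 genes, 7 passed with the title type as a block, with Fbp1 and Pcx added, and 4 without a filter on low values, with G6pc lost. Their median difference ran from -1.34 to -0.97 over all alternatives. Signal over background limits only G6pc in the XCFY array among the 9 genes.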
